A study of Mus musculus with 48 samples.

Results

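Granzymes and cytotoxic genes of the natural killer (NK) type were followed across splenic regulatory T cells (Tregs) and conventional T cells (Tcons) of IL-2-treated mice. The set was 9 genes of the 53345 in the count matrix, taken by symbol, and all 9 were found: the granzymes Gzma, Gzmb and Gzmk, the pore protein Prf1, the granule membrane protein Nkg7, the receptors Klrd1 and Klrk1, the chemokine Ccl5 and the transcription factor Eomes. Female C57BL/6 mice aged 8 to 12 weeks received 2 intraperitoneal doses of 500 µg of either an isotype control antibody (LTF-2) or an antibody that blocks MHC class II (M5/114), the first on the day before IL-2 and the second with it. On the day of the second dose each mouse was given PBS or 25 µg subcutaneously of WT IL-2, the H16R mutein or the 3x mutein. These were human IL-2 molecules carried on an Fc, and 3x is a strongly attenuated mutein with several substitutions. Spleens were taken on day 4 and CD25-bound cells were separated on magnetic beads as Tregs, while the unbound fraction gave the Tcons. RNA was sequenced from 32 Treg libraries, 4 mice in each of 8 groups, and from 16 Tcon libraries, 2 mice in each of the same 8 groups. All mice were of this 1 strain, and the groups differed in antibody and in IL-2 molecule. In the isotype WT IL-2 Tregs the titles gave the number 3 to 2 libraries, here called 3a and 3b. They were counted as 2 mice because the labels describe each sample as 1 mouse, but the repeated number leaves their origin uncertain.

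Cytotoxic lymphocytes kill by releasing granules in which perforin opens the target membrane and granzymes, a family of serine proteases, enter and cleave proteins. NK cells and effector CD8 T cells are the usual carriers of this program, and activated Tregs are known to use granzyme B as well. Receptors of the killer cell lectin-like family set the threshold of NK cell killing, and Ccl5 recruits other leukocytes. IL-2 signals through STAT5, while the T-box factors Eomes and T-bet and the Runx factors are known regulators of cytotoxic genes. MHC class II is what CD4 T cells, Tregs included, read through their antigen receptor.

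The bead-based separation is not free of other cells, so the makeup of the libraries was examined first. Libraries held 18.3 to 51.2 M assigned reads in Tregs and 31.3 to 51.9 M in Tcons, and the isotype PBS Tregs were the shallowest at 18.3 to 34.6 M. A list of 5 Treg markers led by Foxp3 summed to 2409 to 4547 CPM (read counts scaled to library size) in Tregs and to 332 to 1419 in Tcons, with no overlap. A list of 14 NK markers, among them Ncr1 and Tyrobp, summed to 15.8 to 185 CPM in Tregs and to 55.5 to 403 CPM in Tcons, and none of the 14 was at 0 in any group. MHC II block WT IL-2 Treg replicate 1 stood apart, with an NK marker sum of 185 CPM against 59.2 to 74.7 in the other 3 libraries and a myeloid marker sum of 457 CPM against 29.0 to 65.9. Isotype PBS Treg replicate 1 had the highest B cell marker sum of the Tregs, 544 CPM. In such bulk samples fewer cells of a type and less RNA per cell cannot be told apart.

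Stretches before the gene start are shown for Gzma, Gzmb, Nkg7 and Eomes, since the first 3 rose with IL-2 in Tregs of both arms while Eomes fell in isotype Tregs. They were taken from RefSeq on GRCm38.p6, in which 7 of the 9 genes had an entry and Klrd1 and Ccl5 did not match. Capitals mark TTCNNNGAA (the STAT5 motif), AGGTGT (T-box) and TGTGGT (Runx), searched on both strands in the 250 bases before the start, and each stretch reads along its gene's strand.
Gzma, chr13:113100982-113101231, minus strand: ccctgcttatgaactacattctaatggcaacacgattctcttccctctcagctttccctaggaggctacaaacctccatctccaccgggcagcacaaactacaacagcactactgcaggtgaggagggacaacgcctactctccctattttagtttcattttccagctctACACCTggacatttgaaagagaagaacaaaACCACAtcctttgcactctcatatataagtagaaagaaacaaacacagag
Gzmb, chr14:56262335-56262584, minus strand: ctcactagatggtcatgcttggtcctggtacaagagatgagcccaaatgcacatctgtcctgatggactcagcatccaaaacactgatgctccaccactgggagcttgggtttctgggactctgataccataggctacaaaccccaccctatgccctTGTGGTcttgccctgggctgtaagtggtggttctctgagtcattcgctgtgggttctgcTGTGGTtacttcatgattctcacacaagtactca
Nkg7, chr7:43436888-43437072, plus strand: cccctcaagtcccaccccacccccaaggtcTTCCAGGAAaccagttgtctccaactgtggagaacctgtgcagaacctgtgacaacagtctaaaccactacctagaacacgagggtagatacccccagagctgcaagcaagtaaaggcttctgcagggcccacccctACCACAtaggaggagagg
Eomes, chr9:118477939-118478188, plus strand: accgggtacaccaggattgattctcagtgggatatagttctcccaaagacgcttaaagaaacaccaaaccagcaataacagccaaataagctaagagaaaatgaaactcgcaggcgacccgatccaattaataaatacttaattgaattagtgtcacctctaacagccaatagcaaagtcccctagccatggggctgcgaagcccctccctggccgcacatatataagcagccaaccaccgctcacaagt
Gzma held 1 T-box and 1 Runx match and Gzmb 2 Runx matches. Nkg7 held 1 STAT5 and 1 Runx match, with a T-box match in the part of its window that overlaps the gene and is not shown, and Eomes held no match. Over the 7 genes a STAT5 match lay in 1, a T-box match in 4 and a Runx match in 5, while these motifs occurred in 7.02%, 11.8% and 14% of 32851 mouse promoters of the same length. The Gzmk window, with 2 T-box matches, lay wholly within the span of that gene given below. Such matches describe letters and not binding. By position, Gzma and Gzmk are neighbours on chromosome 13, on the minus strand at 113093825 to 113100981 and 113171608 to 113225908, with 70.6 kb between them. Klrd1 and Klrk1 lie 11.5 kb apart on chromosome 6, on opposite strands.

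Gzmb, the granzyme that activates caspases, rose the most of the 9 genes in all 3 comparisons with PBS in isotype mice. In isotype PBS Tregs it stood at 8.76, 8.36, 11.9 and 15.8 CPM in the 4 libraries. After WT IL-2 the 4 isotype libraries held 114, 56.05, 108 and 80.0 CPM, after H16R 186, 166, 255 and 112 CPM, and after 3x 305, 172, 217 and 249 CPM. Each IL-2 group lay wholly above PBS, while the ranges of H16R and 3x overlapped each other. The log2 fold changes against PBS were 3.03 ± 0.27 (SE), 4.04 ± 0.27 and 4.43 ± 0.27, or 8.14-, 16.4- and 21.6-fold, with adjusted p of 5.52e-10, 1.1e-12 and 3.03e-13 (edgeR quasi-likelihood test, Benjamini-Hochberg over 12392 genes, threshold 0.1 as in every comparison here). By size of increase it ranked 13th, 10th and 6th among those 12392 genes.

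With MHC II blocked the same gene started from a like level and went further after the muteins. The block PBS Tregs held 10.5, 9.68, 8.604 and 7.74 CPM and the block WT IL-2 Tregs 83.5, 75.8, 88.8 and 86.3 CPM. After H16R the values were 480.0, 445, 555 and 702 CPM, and after 3x 842, 488, 722 and 936 CPM. Both mutein groups lay above every isotype library, whereas the WT IL-2 group fell inside the isotype WT IL-2 range. Against block PBS the log2 changes were 3.22 ± 0.26, 5.90 ± 0.28 and 6.35 ± 0.29, that is 9.31-, 59.8- and 81.5-fold, with adjusted p of 1.27e-09, 1.81e-15 and 2.01e-16 in edgeR. Block against isotype raised Gzmb by 1.59 ± 0.22 after H16R (adjusted p = 1.75e-05) and by 1.64 ± 0.22 after 3x (1.44e-06), while the difference was -0.08 ± 0.22 after WT IL-2 (0.825) and -0.28 ± 0.29 in PBS (0.61). In the order of group means, block 3x and block H16R overlapped, a gap in ranges separated them from isotype 3x, isotype H16R, isotype WT and block WT, of which neighbours overlapped, and a further gap separated those from both PBS groups.

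**Figure D1:**
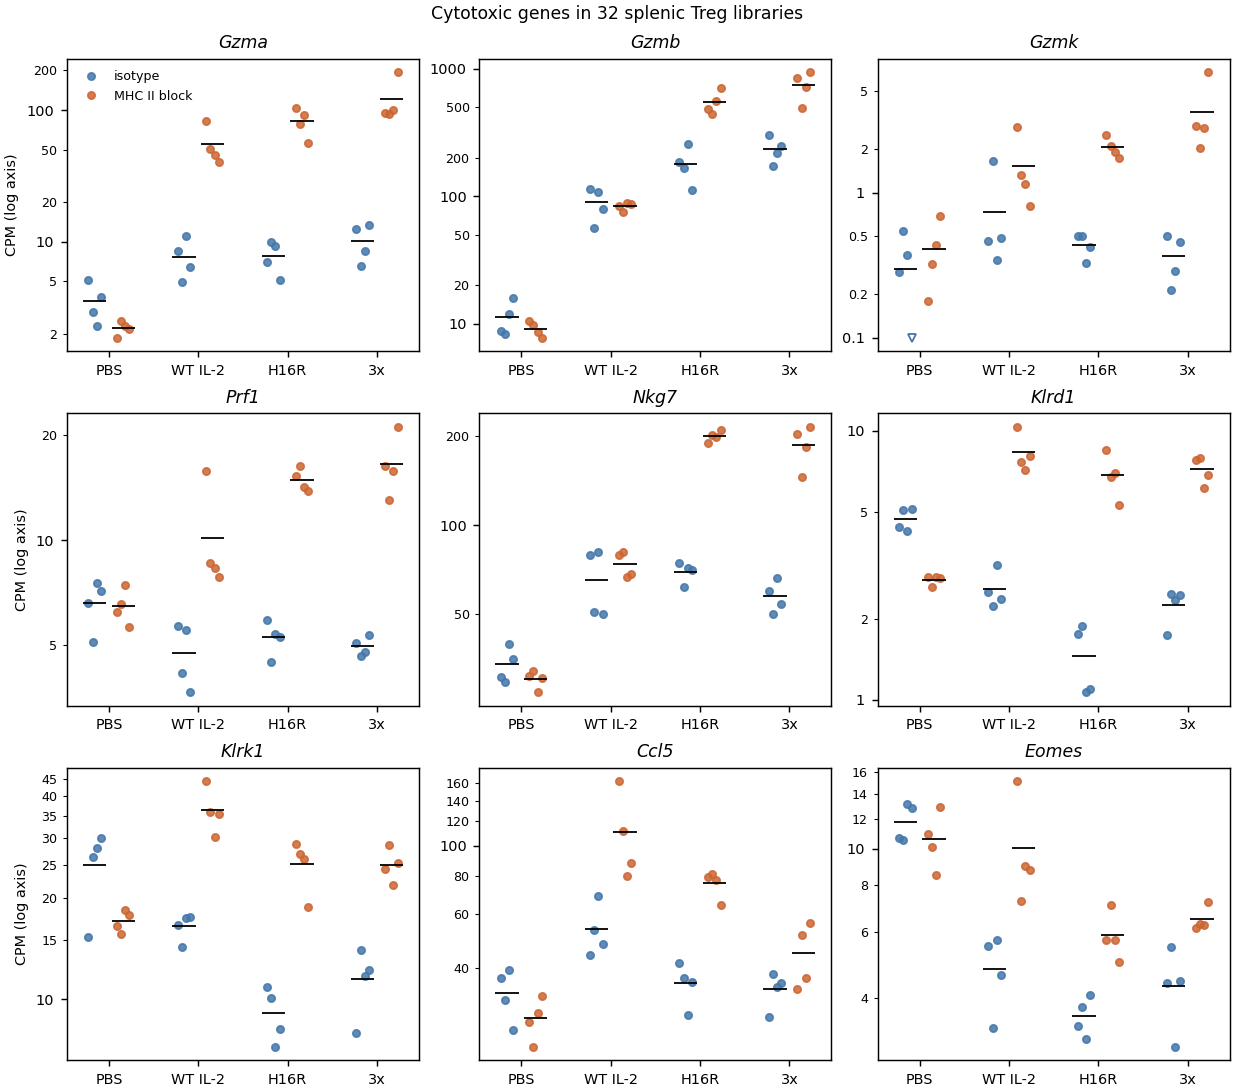
Level of each of the 9 genes in 32 Treg libraries, in CPM on log axes with a range of its own in each panel; points are libraries, black bars group means, blue isotype and orange MHC II block, and the open triangle is a library with Gzmk at 0 drawn at 0.1. Gzmb after the muteins sits at 112 to 305 CPM in isotype and 445 to 936 CPM in block mice, while Gzma is at most 13.4 CPM in every isotype library and at least 40.5 CPM in every block library given an IL-2 molecule.

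Gzma, a granzyme with trypsin-like specificity, behaved otherwise: it was low in isotype Tregs and high in block Tregs once any IL-2 molecule was given. Isotype PBS Tregs held 5.08, 2.90, 2.30 and 3.77 CPM, and the isotype IL-2 groups 4.91 to 10.9 (WT), 5.08 to 9.94 (H16R) and 6.49 to 13.4 CPM (3x). The corresponding changes were 1.08 ± 0.37, 1.10 ± 0.37 and 1.51 ± 0.36 on the log2 scale, each called (adjusted p = 0.0176, 0.0118 and 0.000715, edgeR), although the WT range overlapped PBS. In block PBS Tregs the values were 1.86, 2.50, 2.29 and 2.18 CPM.

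The block IL-2 groups were far higher for Gzma. The libraries held 82.6, 50.4, 45.5 and 40.5 CPM after WT IL-2, 104, 77.8, 92.3 and 56.4 after H16R, and 94.2, 93.7, 101 and 193 after 3x. No isotype library reached the range of these groups, and 3x replicate 4 lay apart from the other 3 of its group. Against block PBS the log2 changes were 4.64 ± 0.35, 5.22 ± 0.35 and 5.75 ± 0.35, or 25-, 37.2- and 53.9-fold, with adjusted p of 4.43e-10, 1.13e-12 and 6.41e-14 in edgeR. The change from PBS was larger under block, with a difference between the arms of 3.56 ± 0.53 for WT IL-2, 4.11 ± 0.54 for H16R and 4.25 ± 0.53 for 3x (adjusted p = 7.65e-05, 1.84e-05 and 2.36e-06, interaction term in edgeR). For Gzmb the same term was 0.19 ± 0.37 for WT IL-2 (0.787) and reached 1.87 ± 0.37 and 1.92 ± 0.37 for the muteins (0.00193 and 0.000366). In Tcons the Gzma difference between the arms was 5.10, 6.04 and 6.14. That fit held a mean for each of the 8 Tcon groups and was chosen after the values were seen. Whether the Gzma of the Treg libraries came from Tregs or from other cells of the fraction was not tested.

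Gzmk, a granzyme typical of memory-type lymphocytes, was scarce. It ranged from 0 to 1.64 CPM in isotype Tregs, mostly at or under the 0.5 CPM used as the minimum, and passed the filter through the block groups. After WT IL-2 the isotype libraries held 0.464, 1.64, 0.341 and 0.485 CPM, so that replicate 2 alone stood above PBS. The change of 1.24 ± 0.58 was called (adjusted p = 0.0832, edgeR), and fell to 0.51 (0.494) without that library; leaving out isotype PBS replicate 1, 3 or 4 also lost the call. In block Tregs Gzmk went from 0.179 to 0.695 CPM in PBS to 0.811 to 2.83 after WT IL-2, 1.72 to 2.50 after H16R and 2.02 to 6.71 after 3x, with no overlap with PBS and changes of 1.88 ± 0.51, 2.30 ± 0.51 and 3.10 ± 0.51. Since the block libraries brought the gene into the test, these changes are given as values with no test, and its calls among the counts over the set are no support.

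Of 7 other granzyme genes, 2 were expressed enough to test. Gzmc, a mouse granzyme close to Gzmb on chromosome 14, was called higher in all 6 comparisons with PBS, by 1.23, 1.49 and 1.99 in isotype and 1.78, 2.67 and 2.41 in block Tregs, from group means of 1.44 CPM (isotype PBS) and 0.805 CPM (block PBS) to at most 5.64 CPM. Gzmm, a granzyme known from NK cells, was called in none of the 6 and had group means of 0.67 to 1.40 CPM. Gzmd, Gzme and Gzmf did not exceed 0.0896, 0.057 and 0.145 CPM in any library, and Gzmg and Gzmn were listed at 0 throughout. Granzyme genes are close copies of each other, and reads shared between them could be divided differently by another counting method.

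Prf1, which encodes perforin, did not follow Gzmb in isotype mice. It stood at 6.62, 5.12, 7.51 and 7.16 CPM in isotype PBS Tregs and at 5.66, 4.16, 5.54 and 3.66 CPM after WT IL-2, with 4.49 to 5.91 after H16R and 4.64 to 5.33 after 3x. All 3 groups leaned below PBS and overlapped it. The fall of 0.48 ± 0.19 on the log2 scale after WT IL-2 (adjusted p = 0.0381, edgeR) was lost without isotype PBS replicate 3 or isotype WT replicate 2 or 3b, at -0.41 to -0.37. The fall of 0.40 ± 0.19 after 3x (0.0641) was lost on removal of any of 5 libraries, isotype PBS replicates 1, 3 and 4 and 3x replicates 2 and 3, at -0.40 to -0.33. That change turned to 0.11 (0.742) with the summed log2 CPM of the B cell markers as a covariate. The change after H16R was -0.32 ± 0.19 (0.139) and was called without isotype PBS replicate 2 or block WT replicate 1 (-0.42 to -0.32).

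In block Tregs Prf1 was higher after every molecule, although for WT IL-2 the direction turned with the summed log2 CPM of the NK markers as a covariate. From 5.62 to 7.45 CPM in PBS it reached 15.8, 8.597, 8.31 and 7.85 CPM after WT IL-2, 13.8 to 16.3 after H16R and 16.3, 13.1, 15.8 and 21.1 after 3x. These groups did not overlap PBS, and WT IL-2 replicate 1, the library with the high NK and myeloid sums, was far above its group. The changes were 0.66 ± 0.18, 1.20 ± 0.18 and 1.34 ± 0.18 (adjusted p = 0.0066, 1.8e-06 and 1.65e-07, edgeR). With that covariate the change after WT IL-2 was -0.08 (0.836), and both mutein calls were kept.

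Nkg7, a membrane protein of cytotoxic granules, rose, like Gzma and Gzmb, with every IL-2 molecule in both arms. Isotype PBS Tregs held 30.6, 29.6, 39.7 and 35.4 CPM, and the isotype IL-2 groups 50.01 to 81.4 (WT), 62.0 to 74.4 (H16R) and 50.2 to 66.1 CPM (3x), each above PBS without overlap. The log2 changes were 0.95 ± 0.14, 1.05 ± 0.14 and 0.78 ± 0.14 (adjusted p = 2.51e-06, 2.29e-07 and 2.03e-05). In block Tregs the gene went from 30.8, 32.2, 27.2 and 30.4 CPM in PBS to 66.8 to 81.6 after WT IL-2, and to 190.3, 202, 199 and 210 after H16R and 203, 146, 184 and 216 after 3x. Both mutein groups lay above the WT IL-2 group in block mice, with changes against PBS of 1.32 ± 0.14 (WT), 2.73 ± 0.14 (H16R) and 2.63 ± 0.14 (3x), at adjusted p of 7.24e-08, 4.23e-15 and 3.56e-15 in edgeR.

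**Figure D2:**
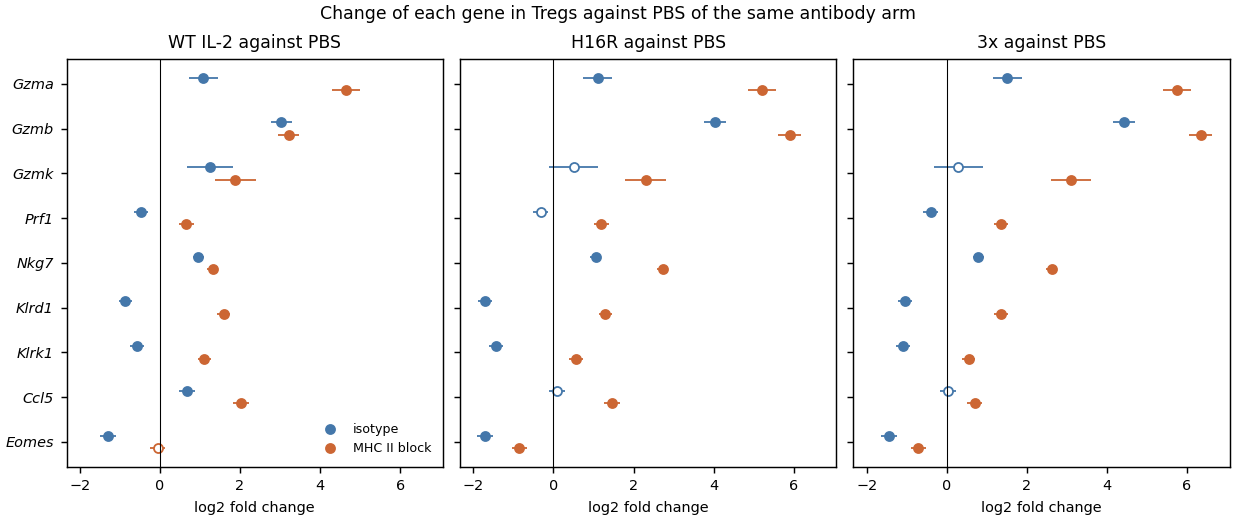
Log2 fold change of each gene in Tregs against PBS of the same antibody arm, with bars of 1 SE, for WT IL-2, H16R and 3x; filled points had an adjusted p under 0.1 and open points did not. In isotype mice Klrd1, Klrk1 and Eomes lie left of 0 and Gzma, Gzmb and Nkg7 right of it, whereas in block mice Eomes is the only gene not right of 0.

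The receptors fell in isotype Tregs. Klrd1, the CD94 chain that pairs with NKG2 receptors, stood at 4.39, 5.07, 4.23 and 5.14 CPM in isotype PBS and at 2.24 to 3.18 after WT IL-2, 1.07 to 1.88 after H16R and 1.75 to 2.47 after 3x. All IL-2 groups lay wholly under PBS, with changes of -0.87 ± 0.17, -1.70 ± 0.18 and -1.05 ± 0.17 (adjusted p = 0.000141, 5.12e-09 and 7.35e-06, edgeR). Klrk1, which encodes the activating receptor NKG2D, held 15.3, 26.3, 28.0 and 30.0 CPM in PBS, and 14.3 to 17.5, 7.25 to 10.9 and 7.96 to 14.0 CPM after WT IL-2, H16R and 3x. PBS replicate 1, the library with the high B cell sum, was the lowest of its group and the sole overlap with WT IL-2. The changes were -0.59 ± 0.17, -1.44 ± 0.18 and -1.10 ± 0.18 (0.0071, 1.18e-07 and 6.26e-06).

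In block Tregs both receptors moved the other way. Klrd1 was at 2.86, 2.63, 2.85 and 2.84 CPM in PBS and at 7.18 to 10.4, 5.31 to 8.47 and 6.14 to 7.96 CPM after WT IL-2, H16R and 3x, which are changes of 1.59 ± 0.17, 1.29 ± 0.17 and 1.35 ± 0.17 (adjusted p = 8.62e-08, 1.79e-07 and 4.36e-08). Klrk1 was at 16.5, 15.6, 18.3 and 17.8 CPM in PBS and at 30.2 to 44.3, 18.8 to 28.9 and 21.8 to 28.7 CPM after the same agents, changes of 1.11 ± 0.17, 0.56 ± 0.17 and 0.54 ± 0.17 (2.26e-05, 0.00672 and 0.0064). With the summed log2 CPM of the NK markers as a covariate the Klrk1 changes after H16R and 3x were 0.32 (0.187) and 0.33 (0.145), and both calls were lost. None of these groups overlapped block PBS. The arms differed in these responses by 2.46, 3.00 and 2.40 for Klrd1 and by 1.69, 2.00 and 1.64 for Klrk1 on the log2 scale, with adjusted p of at most 4.76e-05 in edgeR.

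Ccl5, a chemokine that cytotoxic and memory T cells keep ready as mRNA, rose with WT IL-2 and less or not with the muteins. Isotype PBS Tregs held 37.1, 31.6, 39.4 and 25.2 CPM and isotype WT IL-2 Tregs 44.3, 53.0, 68.8 and 47.9 CPM, a rise of 0.67 ± 0.20 (adjusted p = 0.0071, edgeR) without overlap. After H16R and 3x the isotype values were 28.1 to 41.5 and 27.8 to 38.4 CPM, within or near the PBS range, with changes of 0.09 ± 0.20 (0.716) and 0.03 ± 0.20 (0.901). Each of these changes was called as a rise in 2 alternative fits and left uncalled in 42. In block Tregs Ccl5 went from 22.2 to 32.6 CPM in PBS to 162, 112, 79.8 and 88.1 after WT IL-2, 64.4 to 81.2 after H16R and 34.3 to 56.2 after 3x. The order was thus the reverse of that of Gzmb, with changes of 2.03 ± 0.20, 1.45 ± 0.20 and 0.69 ± 0.20 (3.18e-08, 4.54e-07 and 0.0031).

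Eomes, a T-box factor of NK and memory CD8 T cells, fell in isotype Tregs after every molecule. PBS Tregs held 10.7, 10.6, 13.1 and 12.8 CPM, and the IL-2 groups 3.34 to 5.70 (WT), 3.11 to 4.09 (H16R) and 2.97 to 5.47 CPM (3x). No IL-2 library reached the PBS range, and the changes were -1.30 ± 0.19, -1.71 ± 0.20 and -1.44 ± 0.20 (adjusted p = 4.53e-06, 3.39e-08 and 4.83e-07, edgeR). In block Tregs Eomes was 8.50 to 12.9 CPM in PBS, 15.1, 7.26, 9.00 and 8.76 after WT IL-2, 4.98 to 7.10 after H16R and 6.16 to 7.21 after 3x. The mutein groups lay under PBS by 0.86 ± 0.19 and 0.72 ± 0.19 (0.000389 and 0.00155), while WT IL-2, whose replicate 1 was the highest of all 32 Treg libraries, differed by -0.06 ± 0.19 (0.832).

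Counted over the set, isotype WT IL-2 raised 5 genes and lowered 4 where 26% of all genes tested rose and 26.2% fell (52.2% called). H16R raised 3 and lowered 3 against 31.4% and 32.8% (64.2%), and 3x raised 3 and lowered 4 against 31.3% and 32.3% (63.6%). In the block arm WT IL-2 raised 8 and lowered none against 21.9% and 13.7% (35.6%). H16R raised 8 and lowered 1 against 32.7% and 33.8% (66.5%), and 3x raised 8 and lowered 1 against 34.7% and 38.3% (73%). The median log2 change of the 9 was 0.67, 0.09 and 0.03 in isotype Tregs and 1.59, 1.45 and 1.35 in block Tregs, while the median of all genes lay between -0.04 and 0.02. Block against isotype called 2 of 9 in PBS (14.1% of all genes), 7 after WT IL-2 (33.6%), 9 after H16R (30.7%) and 8 after 3x (54.1%). The latter 3 counts were all higher under block, as were 18.2%, 15.4% and 27.2% of all genes. The PBS calls were Klrd1 at -0.75 ± 0.17 (adjusted p = 0.00552) and Klrk1 at -0.53 ± 0.17 (0.0532), and the latter was lost in 5 removals of single PBS libraries (isotype PBS replicates 2, 3 and 4 and block PBS replicates 1 and 2), at -0.52 to -0.43. Gzmk after WT IL-2, at 1.07 ± 0.47 and given as a value only, was among the 7 and left them on removal of any of 19 libraries. The 6 comparisons with PBS share their PBS libraries within an arm, and the block comparisons reuse the same groups. Interaction terms passed for 6 genes with WT IL-2 (19.7% of all genes), for 8 with H16R (19.1%) and for 9 with 3x (39%). With the summed log2 CPM of the NK markers as a covariate these counts were 3, 5 and 6, and the calls lost were those of Prf1 (WT IL-2 and H16R), Ccl5, Eomes and, with 3x, Gzmk.

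The molecules were then compared with each other at the same dose and day. In isotype Tregs H16R differed from WT IL-2 in 4 of the 9 genes (18.6% of all genes called): Gzmb was higher by 1.01 ± 0.22, and Klrd1, Klrk1 and Ccl5 were lower by 0.83 ± 0.18, 0.85 ± 0.18 and 0.58 ± 0.19. The 3x mutein differed from WT IL-2 in 3 (34.7%), with Gzmb higher by 1.41 ± 0.23 and Klrk1 and Ccl5 lower by 0.51 ± 0.17 and 0.64 ± 0.19. The Ccl5 call for H16R was lost without isotype WT replicate 3a or H16R replicate 3 (-0.48 to -0.44), and the Klrk1 call for 3x without 3x replicate 1 (-0.37). In block Tregs H16R against WT IL-2 called 7 genes (57.5%), raising Gzmb by 2.68 ± 0.23, Nkg7 by 1.41 ± 0.13, Gzma by 0.57 ± 0.26 and Prf1 by 0.54 ± 0.17 and lowering Klrk1, Ccl5 and Eomes by 0.55 to 0.79. The 3x mutein against WT IL-2 called 8 (68.7%), with Gzmb higher by 3.13 ± 0.24, Nkg7 by 1.31 ± 0.13 and Gzma by 1.11 ± 0.26, and Ccl5 lower by 1.33 ± 0.19. Of these, Gzma under H16R was lost in 5 single removals (block WT replicates 2, 3 and 4 and H16R replicates 1 and 3, 0.44 to 0.53) and Ccl5 under H16R without block WT replicate 1 (-0.32). Gzmk, which is among the 8, differed by 1.22 ± 0.44 with 3x and by 0.75 without 3x replicate 4, given as values for the reason above.

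Between the muteins fewer genes differed. In isotype Tregs 3x against H16R called Klrd1 alone (11.5% of all genes), at 0.65 ± 0.18, and not without H16R replicate 4 (0.54, adjusted p = 0.107 in edgeR). In block Tregs it called Ccl5 alone (25.2%), lower with 3x by 0.76 ± 0.19 (0.00592). Gzmb was 0.40 ± 0.22 higher with 3x than H16R in isotype (0.31) and 0.45 ± 0.22 in block Tregs (0.163). The latter was called at 0.59 to 0.61 without block H16R replicate 4 or 3x replicate 2. Gzma, 0.54 ± 0.25 higher with 3x in block Tregs (0.147), was called without block WT replicate 1 or 3x replicate 2 (0.54 to 0.64). The step from WT IL-2 to a mutein was itself larger under block for Gzmb, by 1.67 ± 0.32 for H16R and 1.72 ± 0.31 for 3x, and for Nkg7, by 1.31 ± 0.18 and 1.48 ± 0.18 (adjusted p = 0.000947, 0.00014, 4.43e-05 and 8.79e-07). These were the 2 genes called for H16R (23.5% of all genes) and 2 of the 5 for 3x (43.8%). The H16R count rose to 5 without block WT replicate 1, with Gzmk, Prf1 and Klrd1 gained.

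Compared between genes per length, the leading transcript changed after the muteins and not after WT IL-2. In isotype PBS Tregs the mean FPKM was 62.2 for Ccl5, 38.6 for Nkg7, 12.4 for Klrk1 and 7.74 for Gzmb, and the rest were lower, down to 0.289 for Gzmk. Ccl5 also led after WT IL-2, at 97.6 FPKM in isotype and 205 in block mice. After H16R Gzmb led in both, at 119 and 366 FPKM. After 3x in isotype mice Gzmb led at 158 FPKM, above Nkg7 at 63.3 and Ccl5 at 61.8. Under block and 3x the order was Gzmb at 507 FPKM, Nkg7 at 209, Gzma at 133 and Ccl5 at 81.95, with Prf1 at 6.68. In Tcons Ccl5 led in all 8 groups.

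In Tcons each group had 2 mice. Gzmb held 26.7 and 38.5 CPM in isotype PBS Tcons, 41.5 and 40.5 after WT IL-2, 50.6 and 55.3 after H16R and 39.7 and 33.9 after 3x. Under block it held 23.1 and 20.0 CPM in PBS, 58.4 and 46.4 after WT IL-2, 100.5 and 105 after H16R and 116 and 79.0 after 3x. The block groups given an IL-2 molecule lay above block PBS without overlap, and the isotype 3x pair overlapped isotype PBS. In a model with the IL-2 and the antibody terms added, WT IL-2 called 7 of the 9 genes against PBS (27.2% of all genes), H16R 7 (31.1%), 3x 4 (9.88%) and block against isotype 2 (28.9%), each call being higher, as were 14.8%, 16.2%, 4.71% and 13.8% of all genes. These counts rested on few libraries: WT IL-2 gave 4 without block PBS replicate 1 or 2 or block WT replicate 1, H16R 4 without block PBS replicate 2, and 3x 2 without block PBS replicate 1. Eomes after WT IL-2 was lost in 13 of the 16 single removals. Block against isotype ranged up to 5. Gzmb changed by 0.71 (adjusted p = 0.128), 1.39 (0.0101) and 1.14 (0.0585) after WT IL-2, H16R and 3x in that model. The 3x call was lost without block PBS or block 3x replicate 1 or 2, at 0.87 to 1.12.

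Gzma varied widely in Tcons. Isotype PBS Tcons held 25.0 and 9.32 CPM and block PBS Tcons 1.42 and 1.962 CPM, while the isotype IL-2 groups held 50.4 and 29.5 (WT), 31.6 and 35.6 (H16R) and 29.8 and 18.6 (3x). The block IL-2 groups reached 175 and 95.0, 249 and 189, and 174 and 162 CPM. So the pair of block PBS values lay under all others and the 6 block IL-2 values above them. The added model gave changes against PBS of 2.41 (adjusted p = 0.0881), 2.75 (0.0582) and 2.35 (0.173). They moved to 3.90, 4.21 and 3.80 without isotype PBS replicate 1, to 1.76, 2.04 and 1.63 without block PBS replicate 1, and to 1.77, 2.05 and 1.64 without block PBS replicate 2. The H16R call was lost without either block PBS library, and the WT IL-2 call in 9 of the 16 single removals, both of these included. With a mean for each of the 8 Tcon groups, a model chosen after the values were seen, Gzma rose against block PBS by 6.31, 7.01 and 6.62 after WT IL-2, H16R and 3x, and block against isotype in PBS gave -3.34 (0.00216). That model called 8, 8 and 7 of the 9 genes against PBS in block Tcons (34.8%, 27% and 24.4% of all genes) and 5, 4 and 2 in isotype Tcons (15%, 26.1% and 14.5%).

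Tregs and Tcons of the same mice were compared next, with the mouse as a block. Over all treatments Gzmb was higher in Tregs by 1.00 ± 0.09 (adjusted p = 2.27e-08, edgeR) and the other 8 genes were lower, by 0.76 for Nkg7 to 2.67 for Klrd1. All 9 were called where 80.5% of the 12844 genes were. Some block groups went the other way by group means over all libraries. Nkg7 was higher in Tregs than in Tcons after H16R (200.3 against 185.9 CPM) and 3x (187.3 against 140.1) under block, and Gzma in block PBS, as given below. By treatment the Gzmb difference was -1.48 ± 0.19 in PBS, 0.80 ± 0.17 after WT IL-2, 1.98 ± 0.17 after H16R and 2.71 ± 0.17 after 3x, with adjusted p of 1.34e-05, 0.000789, 6.39e-08 and 2.61e-09. The sign thus turned with treatment for Gzmb. Nkg7 went from -1.35 ± 0.23 in PBS to -0.38 ± 0.22 (0.15) after H16R and -0.29 ± 0.22 (0.263) after 3x, and was called there without some single mice, at -0.61 to -0.38 (isotype 3x mouse 2, block H16R mouse 2 or block 3x mouse 1) and -0.58 (block 3x mouse 1). The arms went opposite ways here: in isotype mice the Nkg7 means of Tregs and Tcons were 69.8 and 126.6 CPM after H16R and 57.6 and 105.6 after 3x. The comparisons by treatment called 9, 9, 8 and 8 of the 9 genes, where 50.4%, 63.5%, 70.4% and 71.2% of all genes were. The Gzma difference in PBS, -1.25 ± 0.45 (0.036), was lost without isotype PBS mouse 1 (-0.51) or mouse 2 (-1.10). Its group means were 3.51 CPM in Tregs and 17.2 in Tcons of isotype PBS mice, and 2.21 and 1.69 CPM, the other way round, in block PBS mice.

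The responses were also tested as a difference of effects, again over both antibody arms together. The response of Gzmb to IL-2 was larger in Tregs than in Tcons by 2.28 ± 0.26 for WT IL-2, 3.46 ± 0.26 for H16R and 4.19 ± 0.26 for 3x (adjusted p = 0.000586, 3.59e-06 and 8.89e-08). Nkg7 differed by 0.98 ± 0.32 for H16R and 1.06 ± 0.32 for 3x (0.0304 and 0.0174). Eomes differed the other way, by -0.90 ± 0.26, -1.27 ± 0.26 and -0.97 ± 0.26 (0.0559, 0.00275 and 0.00866), and Klrk1 by -1.22 ± 0.44 for H16R (0.0467). The WT IL-2 term of Eomes was lost without isotype PBS mouse 1 or 2, isotype WT mouse 1 or block PBS mouse 2 (-0.97 to -0.77), and that of Klrk1 without isotype H16R mouse 1 or 2 (-1.03 to -0.96). The counts were 2, 4 and 3 of the 9 genes, where 12.2%, 40.6% and 46.5% of all genes were called. Gzma, not among them, differed by -0.42, -0.32 and 0.19. Klrk1 fell in isotype and rose in block Tregs after H16R, as given above, so its term is an average over opposite changes.

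**Figure D3:**
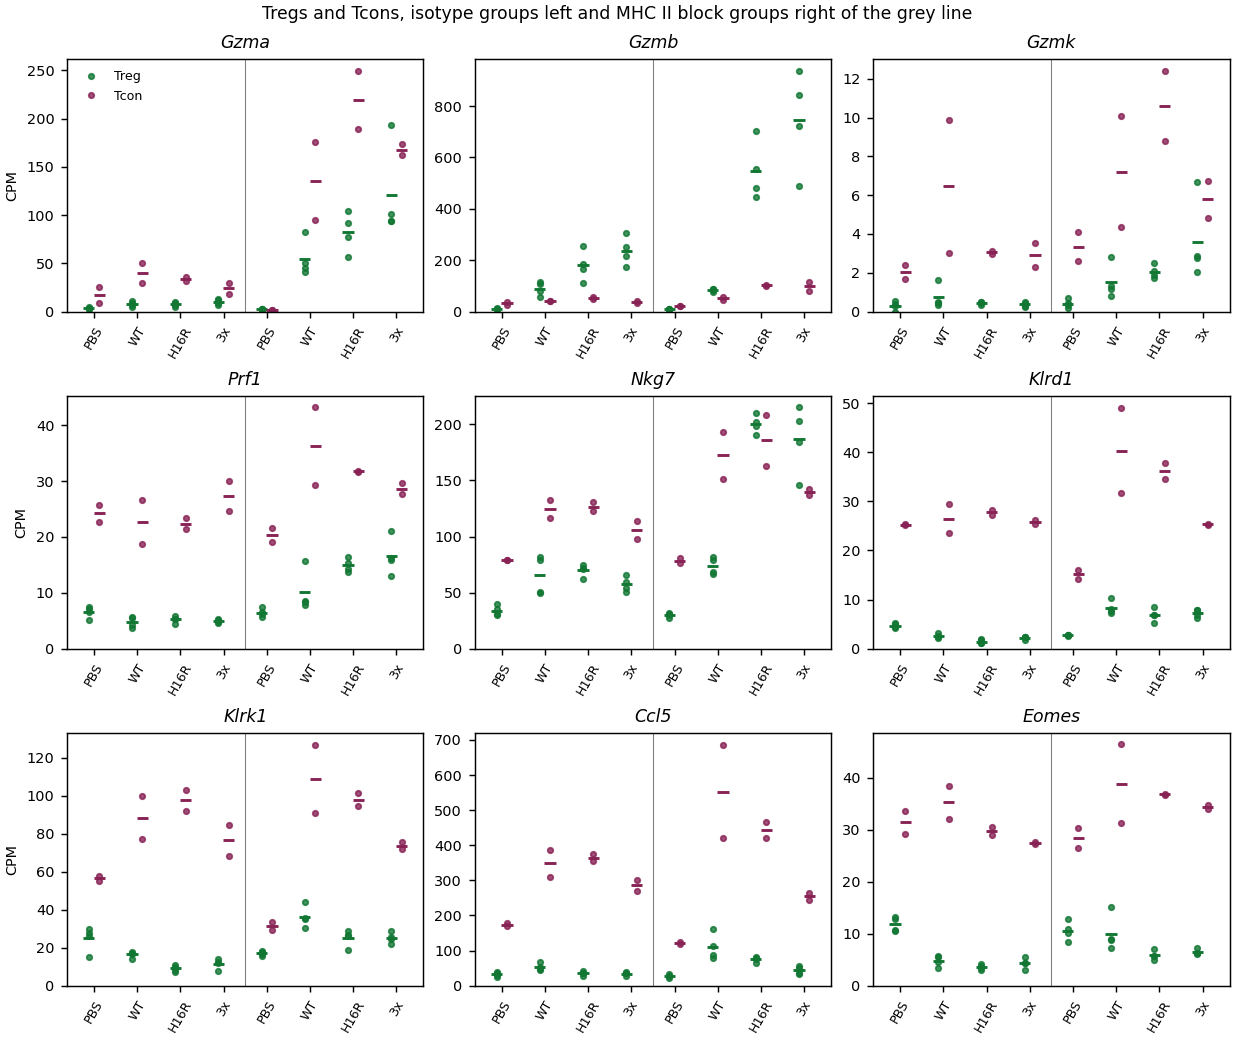
CPM of each gene in Tregs (green, 4 libraries a group) and Tcons (purple, 2 libraries a group) by treatment on linear axes, isotype groups left and MHC II block groups right of the grey line, with bars at the group means. Gzmb is the gene whose Treg values leave the Tcon values below in every IL-2 group, and Klrd1, Klrk1, Prf1, Ccl5 and Eomes of Tregs stay under those of Tcons in every group.

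The values of NK cell markers moved with part of the set and are given here beside it. In isotype Tregs the 14-gene NK sum was 56.7 to 67.2 CPM in PBS, 27.1 to 41.0 after WT IL-2, 15.8 to 25.0 after H16R and 18.6 to 25.8 after 3x, so that the groups given IL-2 lay under PBS. Of 13 markers tested, 6, 10 and 9 fell and 0, 1 (Cma1) and 0 rose, with medians of -0.53, -1.56 and -1.56, where 26.2%, 32.8% and 32.3% of all genes fell. In block Tregs the sum was 35.9 to 45.7 CPM in PBS, 59.2 to 185 after WT IL-2, 38.9 to 60.7 after H16R and 42.0 to 53.6 after 3x. There 12, 7 and 8 markers rose and 0, 1 and 1 fell, with medians of 2.06, 1.06 and 0.95, where 21.9%, 32.7% and 34.7% of all genes rose. Ncr1, the activating receptor NKp46, had Treg group means of 7.16, 3.94, 2.42 and 2.20 CPM in isotype PBS, WT, H16R and 3x and of 4.24, 11.3, 8.89 and 8.29 CPM in the same order under block. Klrb1c (NK1.1) had 18.0, 8.99, 5.66 and 7.81 against 15.7, 19.3, 11.0 and 9.27 CPM, the signalling adaptor Tyrobp 9.92, 4.27, 2.00 and 2.26 against 5.56, 21.2, 6.98 and 6.35, and the adaptor Fcer1g 15.3, 9.07, 5.20 and 4.07 against 8.54, 22.6, 12.1 and 10.5. Fewer NK cells in a fraction and less of these transcripts per cell cannot be told apart here, and some of the markers are also expressed by T cells: Clnk, 1 of the 14, was higher in Tregs than in Tcons, while the other 13 were lower. The block WT IL-2 means include replicate 1, whose myeloid marker sum was 457 CPM against 29.0 to 65.9 in the other libraries. Myeloid sums of both arms are given below. The part of myeloid RNA in Tyrobp, Fcer1g or the NK sum was not tested.

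Set against that sum, the genes divided. Klrk1 per unit of NK marker sum was 0.239 to 0.613 over the Treg libraries and 0.315 to 0.612 over the Tcon libraries, and Klrd1 was 0.056 to 0.164 against 0.122 to 0.263. Gzmb per unit of NK sum had group means of 0.185, 2.59, 9.44 and 11.5 in isotype PBS, WT, H16R and 3x Tregs and of 0.232, 1.03, 11.0 and 15.8 in block Tregs, where the Tcon libraries held 0.145 to 0.614. It exceeded every Tcon value in 23 of the 32 Treg libraries. Nkg7 did so in 20, Gzma in 8, Gzmk, Prf1 and Klrk1 in 1 each, and Klrd1, Ccl5 and Eomes in none. Across the 32 Treg libraries, which share groups, depth and treatment, the correlation of log2 CPM with the log2 NK sum was 0.93 for Klrk1, 0.87 for Klrd1, 0.77 for Eomes, 0.61 for Ccl5, 0.59 for Prf1, 0.39 for Gzmk, 0.38 for Gzma, 0.12 for Nkg7 and -0.19 for Gzmb. Taken as deviations from the group means it was 0.75 for Klrd1, 0.69 for Ccl5, 0.62 for Klrk1, 0.60 for Eomes, 0.54 for Prf1 and 0.43 for Gzma, and between -0.13 and 0.22 for Gzmk, Nkg7 and Gzmb.

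In isotype Tregs Gzmb, Nkg7 and Gzma rose while the NK sum fell, by ratios of group means to PBS of 8.01, 1.93 and 2.19 against 0.555 after WT IL-2 and 21.1, 1.70 and 2.90 against 0.346 after 3x. In block Tregs the NK sum after WT IL-2 was 2.45 times its PBS mean, beside 24.8 times for Gzma, 9.16 times for Gzmb and 2.98 times for Klrd1. Another fit held as a covariate the log2 CPM of the 14 NK markers added up gene by gene, which is not the log2 NK sum. With this covariate the comparisons with PBS of Gzma, Gzmb, Nkg7 and Klrd1 kept their calls and directions in both arms. In that fit the block WT IL-2 change of Prf1 went from 0.66 to -0.08. The block calls for Klrk1 after H16R and 3x were lost as the changes went from 0.56 to 0.32 and from 0.54 to 0.33, and that for Ccl5 after 3x as it went from 0.69 to 0.25 (adjusted p = 0.253). Gzmk after WT IL-2 went from 1.88 to 0.93. The NK markers themselves differed between the groups compared, so this covariate also takes up part of their difference. Other marker lists moved as well. CD8 markers (2 genes) summed to 6.45 to 15.9 CPM in isotype Tregs. Under block they summed to 7.30 to 8.97 CPM in PBS, 10.5 to 45.1 after WT IL-2 (replicate 1 the highest), 10.3 to 15.6 after H16R and 13.6 to 36.7 after 3x, where replicate 4, which had the high Gzma, was the highest. So all 3 block groups given IL-2 lay above block PBS, as did Gzma, Prf1 and Nkg7. Markers of NKT and gamma-delta T cells (3 genes) summed in isotype Tregs to 23.3 to 46.3 CPM in PBS, 15.7 to 22.4 after WT IL-2, 11.1 to 14.5 after H16R and 15.8 to 19.95 after 3x, below PBS like Klrd1 and Eomes. Under block they summed to 36.5 to 44.3, 33.0 to 38.9, 18.3 to 26.9 and 15.5 to 19.3 CPM in the same order. Myeloid markers (6 genes) summed under block to 20.0 to 31.0 CPM in PBS, 29.0 to 457 after WT IL-2, 36.4 to 63.6 after H16R and 48.8 to 67.4 after 3x, and in isotype Tregs to 21.8 to 97.6 in PBS and 14.4 to 25.3 after IL-2. None of the genes of these 3 lists was at 0 over a whole Treg group. The part of CD8, NKT, gamma-delta T or myeloid cells in the levels of the 9 genes was not tested, and the counts with the NK covariate stand beside the interaction terms.

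**Figure D4:**
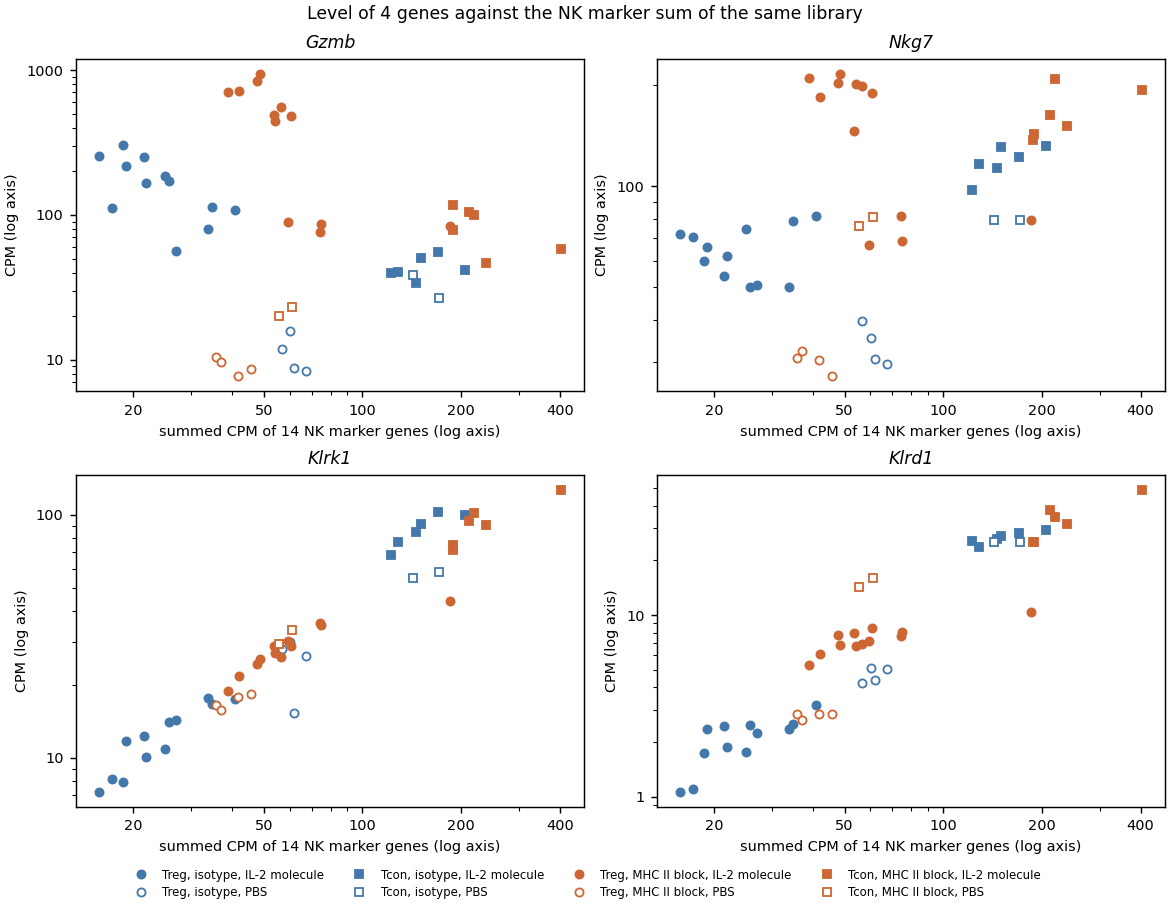
Level of Gzmb, Nkg7, Klrk1 and Klrd1 in CPM against the summed CPM of 14 NK marker genes in the same library, both on log axes; circles are Tregs and squares Tcons, open symbols PBS and filled ones an IL-2 molecule, blue isotype and orange MHC II block. Klrk1 and Klrd1 lie along a band with the NK sum (r of 0.93 and 0.87 over the 32 Tregs), and Gzmb does not (r of -0.19). In isotype mice the IL-2-treated Tregs lie at lower NK sums than the PBS Tregs.

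Other genes of the cytotoxic pathway changed in part. Among 5 genes of granule content, WT IL-2, H16R and 3x raised 2, 2 and 1 and lowered 2 each in isotype Tregs, led by the granule proteoglycan Srgn (0.73, 0.72 and 0.53) and the protease Ctsw (-0.32, -0.69 and -0.44). Of 6 genes of granule exocytosis 5, 4 and 3 rose and 1 fell each time, led by Rab27a, which docks granules (0.63, 0.89 and 0.88), and Lyst (-0.39, -0.36 and -0.27). Among 3 tested serpins that inhibit granzymes, Serpinb6a rose by 0.39, 0.31 and 0.21, and Serpinb9, the inhibitor of granzyme B, fell by 0.18 after 3x and was not called after the other molecules. Under block Serpinb9 rose by 0.46, 0.58 and 0.66. Of 4 death ligands and effector cytokines 1 rose each time, Tnfsf10 (0.47, 0.61 and 0.58), and 1, 2 and 3 fell, led by Fasl (-0.47, -0.50 and -0.59). The background shares for these isotype comparisons are those given above, and the median of all genes was near -0.01.

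Receptors and regulators split likewise. Of 6 NK-type receptors and adaptors 2 rose and 4 fell after each molecule in isotype Tregs, led by Klrg1, a marker of terminally differentiated cells, at 1.77, 2.04 and 2.22, and on the other side by Klrc1 (-1.08) after WT IL-2, Klrc2 (-1.77) after H16R and Slamf7 (-1.55) after 3x. Of 7 transcription factors 5, 3 and 2 rose and 0, 2 and 4 fell, led by Prdm1 (1.14, 1.03 and 0.75), and by Zeb2 among those that fell (-1.17 after H16R and -1.70 after 3x). Of 6 chemokines and receptors of Ccl5 4, 4 and 2 rose and 1 fell each time, with the eotaxin receptor Ccr3 at 1.76, 2.32 and 2.26 and the chemokine Xcl1 at -0.67, -1.64 and -1.33. Of 4 cytokine receptors 3, 1 and 1 rose, the leading one being Il18r1 (0.45) after WT IL-2 and Il2rb, the beta chain of the IL-2 receptor, after the muteins (0.26 and 0.50), and Il12rb2 fell by 0.47 after 3x. In block Tregs Il12rb2 rose by 1.18, 2.20 and 1.85.

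The genes whose level ran most like each member over the 32 Treg libraries, among 9507 with a mean of at least 5 CPM, are given as a description, since groups and treatments set most of the variation. Gzmb was nearest to Hsd11b1, Ccr2 and Rhoc (r = 0.98 each), Nkg7 to Ctsd and Gpr55 (0.96 each) and Runx3 (0.95), and Gzma to Apobr (0.93), Arsb (0.92) and Slc33a1 (0.91). Prf1 was nearest to Il12rb2 (0.91), Epas1 (0.89) and Clic4 (0.88), and Gzmk to Rrbp1 (0.89), Bsg (0.88) and Cptp (0.88). Klrk1 was nearest to Ncr1 (0.96), St3gal6 (0.94) and Slamf7 (0.92), and Klrd1 to Ncr1 (0.94), Klrk1 (0.93) and Klrc1 (0.93). Eomes was nearest to Lrp5 (0.91), Cltb (0.9) and Mctp2 (0.9), and Ccl5 to Id2 (0.85), Evi2a (0.8) and Yipf2 (0.8). Within the set Gzma and Gzmb each ran with Nkg7 (0.91 and 0.90), whereas Gzmb and Klrk1 gave -0.05 and Gzmb and Eomes -0.6.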

How the data were processed

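Strand-specific poly(A) RNA was sequenced as 150-nt pairs, and per the study's methods the authors aligned reads to mouse genome B38 with Omicsoft software and a GENCODE gene model and quantified genes with RSEM. The authors deposited a matrix of RSEM expected counts, of which 72.6% of nonzero values were whole, and a matrix of FPKM. The deposited DESeq2 result tables hold the authors' own fold changes and p-values and were not used; per the labels that was DESeq2 1.30.1. The labels assigned every one of the 48 libraries to a group.

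Expected counts were rounded. Protein-coding genes over 0.5 CPM in at least 4 fitted libraries entered edgeR 4.0.16 (R 4.3.3) quasi-likelihood fits with TMM scaling: 8 group means for Tregs (12392 genes), IL-2 plus antibody for Tcons (12526), and cell type within IL-2 treatment, antibody arms together, with the mouse as a block for pairs (12844). P-values were Benjamini-Hochberg adjusted over all genes, with a threshold of 0.1 as in the study. CPM levels used TMM over all 48 libraries, FPKM served to compare genes, and errors are SD or SE as stated. A model of 8 Tcon groups was added after seeing the data. On simulated counts for WT IL-2 against PBS in isotype Tregs (12392 genes), 91% of genes changed by 1 on the log2 scale were recovered, and 72% of those changed by 0.5. For WT IL-2 against PBS in Tcons (12526 genes) these shares were 74% and 56%, and for Tregs against Tcons (12844 genes) 98% and 85%. Of the calls made, 10.4%, 12.8% and 9.9% were false. The simulation changed 200 genes, whereas 52.2%, 27.2% and 80.5% of genes were called in these comparisons of the data. The recovered and false shares thus need not hold for the data.

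The 9 genes, the lists and the tests were chosen with earlier results of these data known. Named besides the members were each list's called gene with the largest change in each direction in the isotype comparisons with PBS, the other granzymes, 4 NK markers and the 3 genes most like each member. Alternatives tried were total-count and DESeq2 1.42.0 scaling, DESeq2, limma 3.58.1 on log2(FPKM + 0.1), no filter, all biotypes, thinned counts, only the groups compared, a replicate block, marker covariates and libraries left out. Each marker covariate was the log2 CPM of the genes of a list, NK or B cell, summed over the list. No mice were pooled, and depth was 18.3 to 51.9 M reads.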

Additional observations from a re-analysis of the deposited data

Results flagged for a closer look

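In 7 of 80 sets of 4 Treg libraries 1 library lay far from the other 3 by Dixon's ratio (over 0.829), which chance gives in about 1 in 20 sets. Gzma reached 193.4 CPM in MHC II block 3x replicate 4, against 93.7 to 100.9 in the other 3, and Eomes was 7.211 CPM in the same library against 6.157 to 6.29. Prf1 was 15.76 CPM in block WT IL-2 replicate 1 against 7.854 to 8.597, and the NK marker sum of that library was 185.0 CPM against 59.21 to 74.67. Gzmk was 1.643 CPM in isotype WT IL-2 replicate 2 against 0.3408 to 0.4855. Klrd1 was low in isotype 3x replicate 1, at 1.748 CPM against 2.354 to 2.468, and in block PBS replicate 2, at 2.628 against 2.842 to 2.858.

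The change from PBS differed between the antibody arms, tested as an interaction in edgeR with Benjamini-Hochberg adjustment and given as block minus isotype on the log2 scale. Gzma differed by 3.56, 4.11 and 4.25 for WT IL-2, H16R and 3x, Klrd1 by 2.46, 3.00 and 2.40, and Klrk1 by 1.69, 2.00 and 1.64. Prf1 differed by 1.14, 1.52 and 1.75, Ccl5 by 1.36, 1.36 and 0.66, and Eomes by 1.23, 0.85 and 0.72. Gzmb and Nkg7 differed for the muteins, by 1.87 and 1.92 and by 1.68 and 1.84, and Gzmk for 3x by 2.82, which is given as a value only because the gene entered the test through its block levels. The Ccl5 term for 3x was lost in 7 single removals (0.52 to 0.65) and the Eomes term for 3x without isotype 3x replicate 3 (0.58). The NK marker sum fell in isotype Tregs over the same comparisons. Under block its ratio of group means to PBS was 2.45 after WT IL-2, without overlap. After H16R and 3x that ratio was 1.31 and 1.20, and the ranges overlapped block PBS. With the summed log2 CPM of the NK markers as a covariate the terms of Gzma, Klrd1 and Klrk1 kept their calls for all 3 molecules, and those of Gzmb and Nkg7 for both muteins. The Prf1 terms were 0.29, 0.70 and 1.00, of which the last was called. No call was left for Ccl5 (0.46, 0.50 and -0.13) or Eomes (0.49, 0.13 and 0.066), nor for Gzmk with 3x (1.85).

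The step from WT IL-2 to H16R was larger under block for Gzmb by 1.67 and for Nkg7 by 1.31, and the step to 3x by 1.72 for Gzmb, 1.48 for Nkg7 and 0.61 for Prf1, and by -0.70 for Ccl5. Gzmk, with 2.18 for that step, is given as a value only, for the reason above, and ranged from 1.45 (without isotype WT IL-2 replicate 2) to 2.65 (without block WT IL-2 replicate 1). The Prf1 term was lost in 6 single removals (0.49 to 0.54) and the Ccl5 term in 3 (-0.60 to -0.44).

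Between Tregs and Tcons, with both antibody arms together, the response to IL-2 differed for Gzmb by 2.28, 3.46 and 4.19 after WT IL-2, H16R and 3x, and for Eomes by -0.90, -1.27 and -0.97. Nkg7 differed by 0.98 after H16R and 1.06 after 3x, and Klrk1 by -1.22 after H16R.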

How the results depend on the processing

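Of the alternatives, DESeq2, other scalings, no filter and all biotypes left nearly all calls for single genes as they were. The DESeq2 test left 292 as they were, lost 1 and gained 4, raising the count of called genes in block against isotype Tcons from 2 to 4, and limma on FPKM left 288 and moved the count from 2 to 1 for block against isotype in PBS Tregs and from 3 to 5 for the Treg minus Tcon effect of 3x. Thinning to the smallest Treg library took 3x against H16R in isotype Tregs from 1 to 0. With only the groups compared that count was 2, block against isotype in PBS Tregs was 1, and the interaction with 3x against WT IL-2 fell from 5 to 3. The NK marker covariate left 157 as they were, lost 22, gained 8 and reversed 2. It moved block against isotype in PBS Tregs from 2 to 1, 3x against H16R in block Tregs from 1 to 2, and the interactions with WT IL-2 and H16R against PBS from 6 to 3 and from 8 to 5. It turned Prf1 after WT IL-2 under block to -0.082 and the Ccl5 interaction with 3x to -0.13, and the B cell covariate turned Prf1 after 3x in isotype Tregs to 0.11. Without both block WT IL-2 replicate 1 and isotype PBS replicate 1, 3x against H16R in block Tregs rose from 1 to 2 and the interaction with H16R against WT IL-2 from 2 to 5.

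In the model of 8 Tcon groups, chosen after seeing the data, H16R against PBS called 4 genes in isotype Tcons where the added model called 7, and 3x called 2 in isotype and 7 in block Tcons where it called 4. Block against isotype called 5 within WT IL-2 and within PBS gave 8 of 9 genes below 0. There Gzma (-3.34), Nkg7 (-0.018), Klrd1 (-0.74), Gzmb (-0.60), Prf1 (-0.25), Ccl5 (-0.52) and Eomes (-0.15) turned from the added model, and Klrk1 was called at -0.84.

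Leaving out single libraries gave counts of 7 to 9, 6 to 7 and 6 to 7 for WT IL-2, H16R and 3x against PBS in isotype Tregs and of 8, 9 and 9 in block Tregs. The range was 1 to 2 for block against isotype in PBS, 0 to 1 for 3x against H16R in isotype and 1 to 3 in block Tregs, and 2 to 5 for the interaction with H16R against WT IL-2. In Tcons it was 4 to 8, 4 to 7 and 2 to 5 against PBS and 2 to 5 for block against isotype. For the Treg minus Tcon effects it was 1 to 2, 3 to 4 and 3 to 5.

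The replicate numbers of the Treg labels were not taken as pairs: 27 of 112 same-number pairs correlated over 0.1 (median 0.02), and 11 of 32 libraries correlated best with their own number. A replicate block changed no count by over 1.5 times and 1 gene call, Gzmk in block against isotype WT IL-2 Tregs (0.99, adjusted p = 0.137, edgeR). Without the mouse block the Treg minus Tcon effect of WT IL-2 called 1 gene and not 2. Gzmk was near or under 0.5 CPM in most isotype Tregs, and the Tcons had 2 mice a group.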
